A study of Mus musculus with 4 samples.

Results

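The 10 genes described here are brakes on cell division and growth arrest genes: the cyclin-dependent kinase (CDK) inhibitors Cdkn1a, Cdkn1b, Cdkn1c and Cdkn2c, the stress-inducible genes Gadd45a, Gadd45b and Gadd45g, the antiproliferative genes Btg1 and Btg2, and the cyclin G1 gene Ccng1. Members were taken as the array probes whose design accession is a RefSeq transcript of one of these genes, with every probe of a gene kept. All 10 genes were on the array with 16 probes in all, out of 17305 genes with a named probe and 41174 different probes. All 16 probes entered the test, each of them well above background in either channel of every array, so the filter on dim probes removed none.

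The study compared whole pancreas of Cyp11a1 knockout mouse embryos with that of wild-type embryos, both of strain C57BL/6JNarl at stage E18.5, late in gestation. Cyp11a1 encodes the mitochondrial enzyme that makes pregnenolone from cholesterol, the entry step of steroid hormone synthesis. Each of 4 two-colour Agilent arrays held 1 knockout extract in the red channel and 1 wild-type extract in the green channel, so the study has 4 extracts per genotype, which its design calls biological replicates. No array had the dyes swapped, so a dye effect of a probe and the genotype cannot be told apart in any value given here. Whether an extract came from 1 embryo or a pool, whether paired embryos were littermates, how the knockout was made and the embryos' sex are points that the sources used here leave unstated.

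Median spot signals of the arrays were 304 to 467 for knockout and 163 to 224 for wild type, and between 78.2% and 85.1% of a channel's spots exceeded background clearly. Cyp11a1 had log2 ratios of knockout over wild type of -0.19, -0.40, 0.013 and -0.072 on arrays 1 to 4 with probe A_51_P309727, a mean of -0.16 ± 0.070 (SE, n = 4, limma adjusted p = 0.179). Its other probe (A_51_P309733) had -0.090, -0.22, -0.089 and -0.078, but cleared background in 0 knockout extracts and 1 wild-type extract, and was not tested. Where these probes lie relative to the deleted part is unstated in the sources used here, and they therefore do not check the labels. Xist, the RNA that coats the inactive X chromosome of females, had log2 ratios of -3.91, -0.28, -4.22 and 3.46, and the Y-linked Eif2s3y had 1.82, 0.23, 1.74 and -1.20. These genes differed strongly within arrays 1, 3 and 4, with Xist lower in the knockout extracts of arrays 1 and 3 and higher in that of array 4, so the paired extracts of those arrays differ in sex-linked RNA as well as in genotype. The normalised Xist signal was 81, 74, 61 and 1875 in the knockout extracts of arrays 1 to 4, against 1221, 90, 1133 and 170 in the wild-type extracts. Both extracts of array 2 thus had low Xist. All tested islet, duct and exocrine markers were above background, as the pancreas label implies. In whole tissue, fewer cells of a type and less RNA per cell cannot be told apart.

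As background, cells pass from G1 into DNA synthesis when cyclins activate CDKs. The Cip/Kip inhibitors p21 (Cdkn1a), p27 (Cdkn1b) and p57 (Cdkn1c) bind cyclin and CDK complexes, while the INK4 inhibitor p18 (Cdkn2c) binds CDK4 and CDK6. In the developing pancreas these inhibitors are known for holding progenitors and endocrine cells out of the cycle as they differentiate. The GADD45 proteins bind PCNA, CDK1 and the kinase MAP3K4 in stressed cells, BTG proteins recruit the CCR4-NOT deadenylase to messenger RNA, and cyclin G1 brings the phosphatase PP2A to MDM2. Cdkn1a, Gadd45a, Btg2 and Ccng1 are well known targets of the tumour suppressor p53.

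The promoter windows of 6 members are printed here because the results turn on one of these genes (Cdkn1a) and on the differing array patterns of others. RefSeq promoter sequences of assembly GRCm38.p6 were matched for 9 of the 10 members, in 11 windows, each of the 250 bases before an annotated transcription start. The first 3 show the known p53 target genes whose window holds a p53 half-site, the degenerate motif that p53 binds as a pair, with each half-site in capitals. The Cdkn1a window is chr17:29090729-29090978 on the plus strand, the Gadd45a window is chr6:67037408-67037657 on the minus strand, and the Ccng1 window is chr11:40755287-40755536 on the minus strand.
Cdkn1a: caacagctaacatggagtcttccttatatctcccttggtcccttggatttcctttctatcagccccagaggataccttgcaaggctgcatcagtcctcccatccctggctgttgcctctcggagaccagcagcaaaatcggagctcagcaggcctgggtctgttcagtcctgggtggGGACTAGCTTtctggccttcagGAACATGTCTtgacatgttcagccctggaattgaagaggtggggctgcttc
Gadd45a: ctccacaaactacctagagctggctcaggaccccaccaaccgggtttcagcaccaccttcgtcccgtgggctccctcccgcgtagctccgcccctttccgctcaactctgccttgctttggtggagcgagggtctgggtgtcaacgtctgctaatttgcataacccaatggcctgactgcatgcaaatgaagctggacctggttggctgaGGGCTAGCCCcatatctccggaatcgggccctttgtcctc
Ccng1: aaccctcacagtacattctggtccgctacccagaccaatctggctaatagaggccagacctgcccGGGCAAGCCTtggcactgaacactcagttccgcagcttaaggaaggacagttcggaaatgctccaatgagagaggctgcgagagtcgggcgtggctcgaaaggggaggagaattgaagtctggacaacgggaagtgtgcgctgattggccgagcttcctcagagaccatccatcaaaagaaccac

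The Cdkn1a window, which belongs to the more upstream of its annotated starts, held 2 half-sites that begin 73 and 51 bases before the start. The Gadd45a window held 1 that begins 40 bases before the start, and the Ccng1 window held 1 that begins 185 bases before it. In all, 3 of 11 member windows held a p53 half-site on either strand, against 7.12% of 32817 windows of the same length over 26994 genes. A match is a description of letters and not of binding.

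The other 3 windows belong to the genes whose ratios differed most between arrays, and their capitals mark TATAAA (the TATA box), CCAAT (the CCAAT box) and TGACGTCA (the cyclic AMP response element). The Gadd45b window is chr10:80929841-80930090 on the plus strand, the Gadd45g window is chr13:51846425-51846674 on the plus strand, and the Btg2 window is chr1:134079156-134079405 on the minus strand.
Gadd45b: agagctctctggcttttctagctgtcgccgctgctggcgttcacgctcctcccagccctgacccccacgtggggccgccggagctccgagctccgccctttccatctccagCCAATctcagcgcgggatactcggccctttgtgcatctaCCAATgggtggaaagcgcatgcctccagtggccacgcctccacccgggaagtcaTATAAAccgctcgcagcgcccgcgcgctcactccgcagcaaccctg
Gadd45g: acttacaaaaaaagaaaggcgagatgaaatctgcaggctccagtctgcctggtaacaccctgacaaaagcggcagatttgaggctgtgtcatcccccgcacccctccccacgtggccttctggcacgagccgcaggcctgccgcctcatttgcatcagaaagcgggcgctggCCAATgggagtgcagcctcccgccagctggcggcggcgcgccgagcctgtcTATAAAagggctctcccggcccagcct
Btg2: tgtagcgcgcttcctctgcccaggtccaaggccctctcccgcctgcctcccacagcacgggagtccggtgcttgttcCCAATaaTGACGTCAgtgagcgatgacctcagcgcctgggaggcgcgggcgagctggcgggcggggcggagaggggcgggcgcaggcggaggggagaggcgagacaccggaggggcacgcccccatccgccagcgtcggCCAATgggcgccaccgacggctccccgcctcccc

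TATAAA stood 46 bases before the start in Gadd45b, 27 in Gadd45g and 26 in Btg1, 3 of 11 member windows against 12.4% of all windows on either strand. CCAAT stood in 7 of 11 member windows, against 33.8% of all windows. TGACGTCA began 166 bases before the start of Btg2 and was in 1.55% of all windows. It contains the shorter TGACG, which stood in 2 of 11 member windows (Btg1 and Btg2) and in 17.7% of all windows. The palindromic glucocorticoid response element was in 0 member windows and in 0.0091% of all windows.

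Across the members, only Cdkn1a passed the test, and it was lower in knockout pancreas. Ratios are log2 of knockout over wild type after loess normalisation within each array, tested against 0 with limma over all 32951 probes tested, and a probe passed at a Benjamini-Hochberg adjusted p under 0.05. By this rule 0 member probes were higher and 1 of 16 was lower (6.25%), against 10.6% of all tested probes called in either direction, 6.55% higher and 4.1% lower. In genes, 0 of 10 members were higher and 1 was lower, against 9.7% higher and 5.51% lower of 15625 genes tested, and 15.3% with a called probe in either direction. At an unadjusted p under 0.05 there were 8 of 16 member probes, against 27.4% of all tested probes. On the lower side these were Cdkn1a, every Btg2 probe and Gadd45b A_52_P1197913. On the higher side they were both Ccng1 probes and Btg1 A_51_P288193. Several of the 8 are thus probes of the same gene and not separate genes. The member median was -0.077, against 0.0041 over all tested probes.

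**Figure D1:**
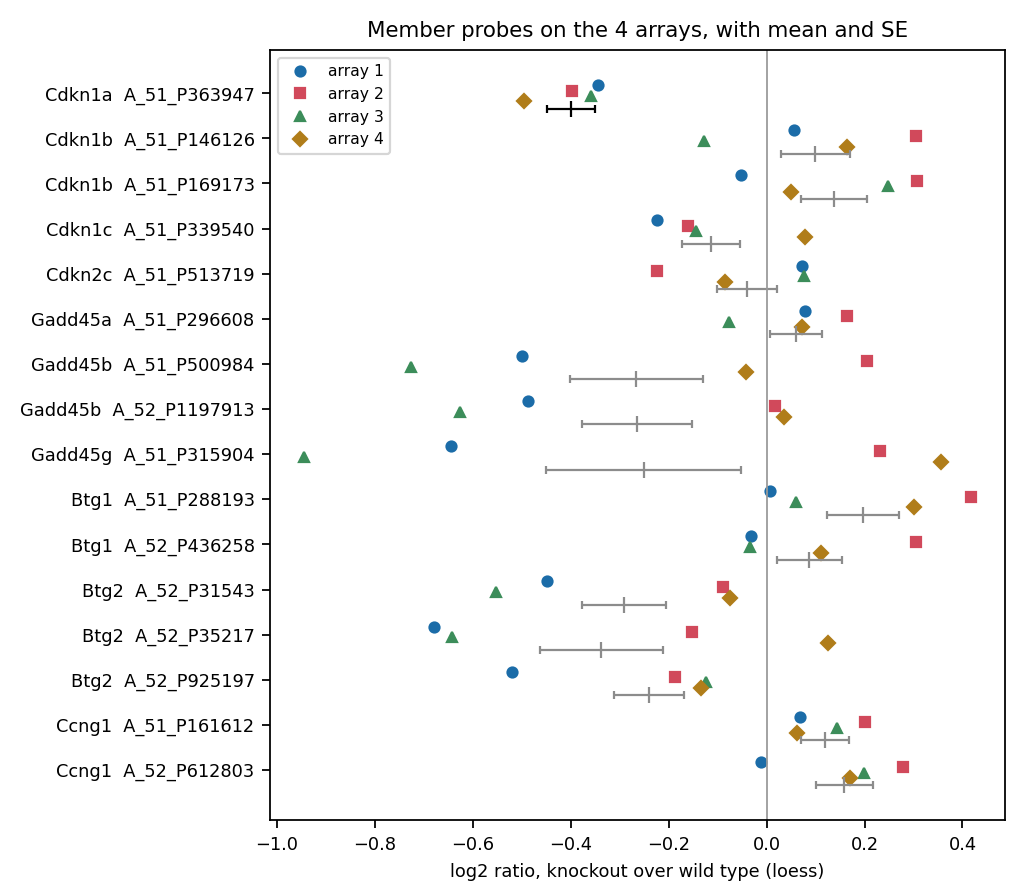
Log2 ratio of knockout over wild type (x axis, loess) of the 16 member probes (rows) on the 4 arrays, with the mean and SE in black where the adjusted p was under 0.05 and in grey otherwise. The 4 Cdkn1a points lie together between -0.49 and -0.34, while those of Gadd45g spread from -0.95 to 0.36.

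Cdkn1a encodes p21, the inhibitor through which p53 halts the cell cycle. Its probe (A_51_P363947, Cdkn1a on chromosome 17) is printed 10 times on each array. Its normalised signal was 433, 449, 342 and 410.4 in the knockout extracts of arrays 1 to 4, against 549.7, 591, 439 and 578 in the wild-type extracts. The knockout extract was the lower one on each of the 4 arrays, although the ranges of the genotypes overlapped, since the wild-type extract of array 3 was below the knockout extract of array 2. The log2 ratios were -0.34, -0.40, -0.36 and -0.49, and Cdkn1a fell by 0.40 ± 0.049 on the log2 scale (SE, n = 4, 95% interval -0.51 to -0.29, adjusted p = 0.00318), to 0.759 times the wild-type signal. All 40 single spots gave a ratio below 0, from -0.66 to -0.18, and the SD of the 10 spots of an array was 0.050 to 0.084. Repeated spots of an array share its extracts, so they show the error of the spot measurement and not that between embryos. The 5 measured endothelial markers were also low on all 4 arrays when summed, with summed log2 ratios of -0.14, -0.083, -0.24 and -0.15 and sums of 5241 to 6302 in knockout against 5759 to 7437 in wild type. Of these, 0 rose, 1 fell (the angiopoietin receptor gene Tek, -0.29, adjusted p = 0.0284) and none was below background. The endothelial sum did not stand for each marker. Pecam1, Cdh5 and Tek were lower on all 4 arrays, but Kdr was higher on arrays 2 and 4 (0.048 and 0.0090) and Emcn on array 1 (0.039). Summed ratios of the 5 measured Schwann and neuron markers were low on all 4 arrays too (-0.042, -0.17, -0.093 and -0.13). So were those of the 3 measured adipocyte markers (-0.045, -0.034, -0.16 and -0.064), and 0 markers of either list passed. The part of these cell types in the Cdkn1a ratio was not tested. The Cdkn1a call was kept when any 1 array was left out (adjusted p 0.0111 to 0.0174), and it was lost only when the channels were taken as separate samples without the array as a block (adjusted p = 0.253).

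A value on all 4 arrays was present for 14845 genes, of which those on the gene lists or named only by a clone or accession were left out. The 5 remaining genes whose 4 array ratios were nearest to those of Cdkn1a were Apol7a, Cebpg, Arhgef3, Fbxo33 and Cnn1. Their root mean square differences from Cdkn1a were 0.047 to 0.089. Their mean log2 ratios were -0.41 for Apol7a, -0.38 for Cebpg (a bZIP transcription factor), -0.36 for Arhgef3, -0.35 for Fbxo33 (an F-box protein) and -0.33 for Cnn1 (the smooth muscle protein calponin). Likeness was measured over the 4 arrays that also gave the values, so no test of it is given.

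**Figure D2:**
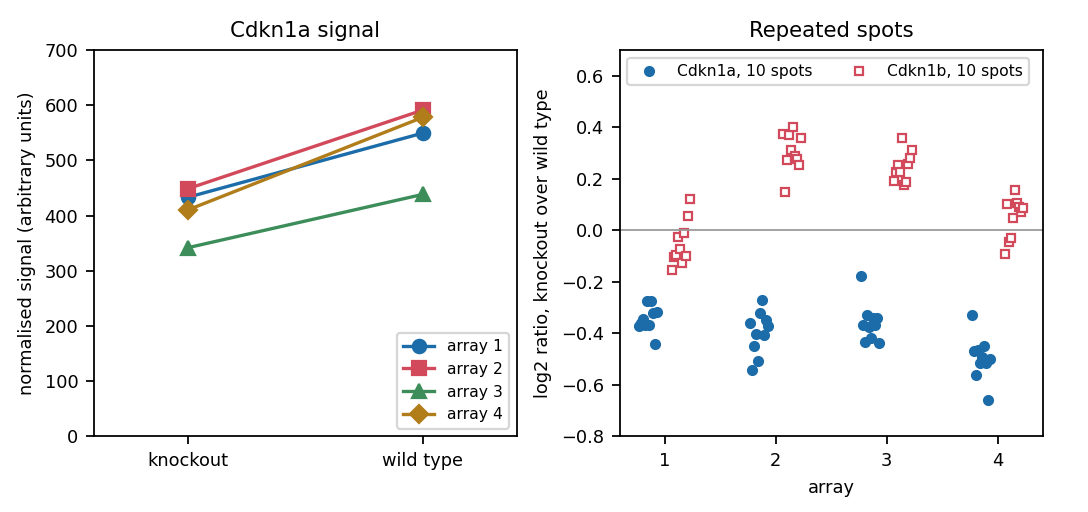
Left, normalised signal (arbitrary units) of the Cdkn1a probe in the knockout and wild-type extract of each array, joined by a line. Right, log2 ratio of each of the 10 repeated spots of the Cdkn1a and Cdkn1b probes by array: the 40 Cdkn1a spots lie below 0, while 29 of 40 Cdkn1b spots lie above it.

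The other Cip/Kip inhibitors and p18 did not pass. Cdkn1b, whose protein p27 keeps resting cells in G1, had log2 ratios of 0.056, 0.31, -0.13 and 0.17 with probe A_51_P146126, a mean of 0.10 ± 0.071 (SE, n = 4, adjusted p = 0.40). Its other probe (A_51_P169173), also printed 10 times, gave -0.051, 0.31, 0.25 and 0.049, a mean of 0.14 ± 0.067 (adjusted p = 0.226). The probes had the same value on array 2 and opposite signs on arrays 1 and 3, up to 0.38 apart on 1 array. Of 40 spots of the repeated probe, 11 were below 0 and 29 above, and arrays 2 and 3 had all 10 spots above 0.

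Cdkn1c is an imprinted gene expressed from the maternal copy, and its protein p57 restrains proliferation in pancreatic progenitors and beta cells. Its log2 ratios were -0.22, -0.16, -0.14 and 0.078, a mean of -0.11 ± 0.059 (95% interval -0.25 to 0.023, adjusted p = 0.261). The knockout extract was lower on arrays 1 to 3 and higher on array 4, and the mean missed the threshold. Cdkn2c, the CDK4 and CDK6 inhibitor p18, had 0.072, -0.22, 0.076 and -0.084, a mean of -0.040 ± 0.062 (95% interval -0.18 to 0.10, adjusted p = 0.718), with 2 arrays on each side of 0.

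Among the GADD45 genes, Gadd45b and Gadd45g varied widely between arrays and none passed. Gadd45a, the p53-inducible member, had log2 ratios of 0.079, 0.16, -0.076 and 0.073, a mean of 0.060 ± 0.053 (95% interval -0.063 to 0.18, adjusted p = 0.508). Gadd45g, known from cytokine-treated and differentiating cells, had a normalised signal of 991, 1443, 1194 and 1142 in knockout extracts, against 1549, 1229.6, 2299 and 892 in wild-type extracts. The knockout extract was lower on arrays 1 and 3 and higher on arrays 2 and 4. The SD was 188 over the knockout extracts and 601 over the wild-type extracts, so the spread was wider over the wild-type extracts. The log2 ratios were -0.64, 0.23, -0.95 and 0.36, and the mean of -0.25 ± 0.20 (adjusted p = 0.452) was small against an SD of 0.64, wider than that of 99.5% of tested probes. Without array 3 the mean was -0.019.

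Gadd45b, the member induced by TGF-beta and NF-kappaB signalling, followed a like course with both of its probes. Probe A_51_P500984 had a signal of 639.7, 789, 578 and 471 in knockout extracts, against 904, 685, 956 and 485 in wild-type extracts. Its ratios were -0.50, 0.21, -0.73 and -0.043 (mean -0.27 ± 0.14, adjusted p = 0.246), and those of probe A_52_P1197913 were -0.49, 0.018, -0.63 and 0.035 (mean -0.26 ± 0.11, adjusted p = 0.172). Arrays 1 and 3 were low with both probes and arrays 2 and 4 were near 0 or above. Without array 3 the means were -0.11 and -0.14.

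Btg2, an immediate early and p53-induced antiproliferative gene, had a negative mean with all 3 probes and passed with none. Probe A_52_P31543 had a signal of 1104, 1060.3, 920.1 and 796 in knockout extracts, against 1506, 1128, 1349 and 838 in wild-type extracts. Its ratios of -0.45, -0.090, -0.55 and -0.074 gave a mean of -0.29 ± 0.086 (95% interval -0.49 to -0.093, adjusted p = 0.0689). Probe A_52_P35217 gave -0.68, -0.15, -0.64 and 0.12, a mean of -0.34 ± 0.13 (adjusted p = 0.129), and it passed without array 4 (mean -0.49, adjusted p = 0.0353). Both probes were lowest on arrays 1 and 3. Probe A_52_P925197 gave -0.52, -0.19, -0.12 and -0.13, a mean of -0.24 ± 0.072 (adjusted p = 0.0706), so here array 1 alone stood apart and array 3 differed from the other probes by up to 0.52. Its signal also varied between arrays in both genotypes, from 1106 to 3320.5 in knockout extracts and from 1205 to 4445 in wild-type extracts.

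**Figure D3:**
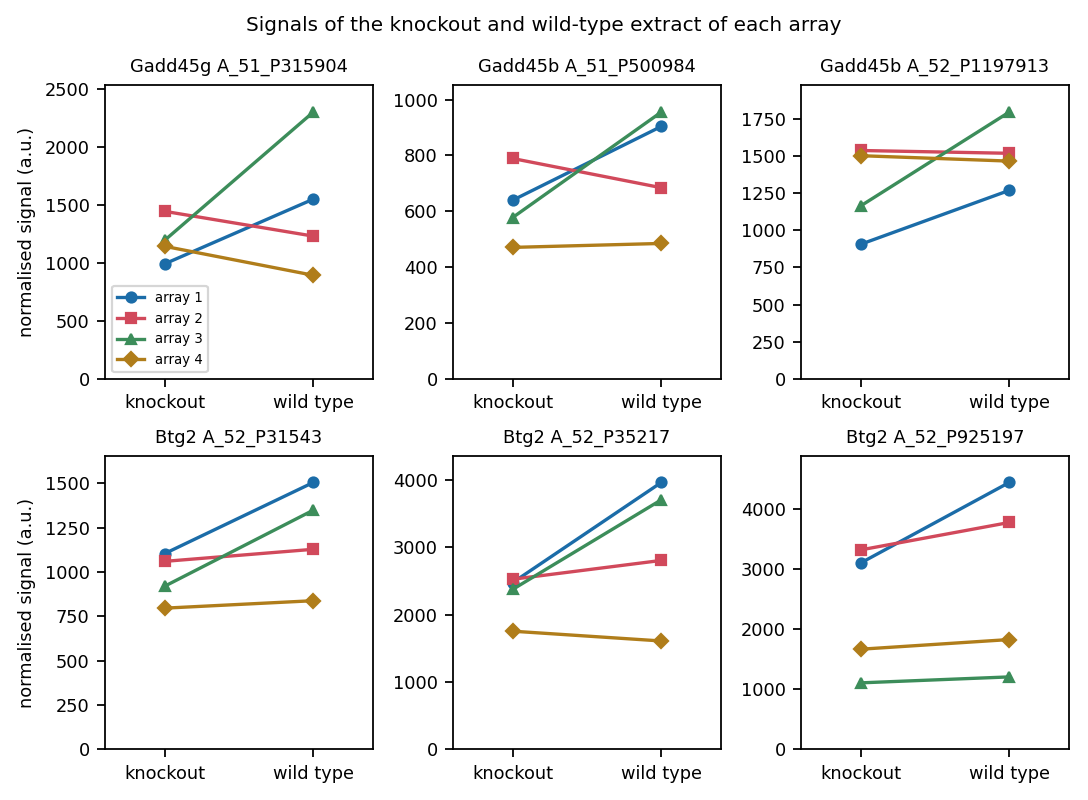
Normalised signal (arbitrary units) of the Gadd45g, Gadd45b and Btg2 probes in the knockout and wild-type extract of each array, joined by a line. On arrays 1 and 3 all 6 lines run up to the wild-type extract, while on arrays 2 and 4 the Gadd45g line runs the other way.

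Btg1, a close relative of Btg2 that is abundant in resting cells, lay on the other side of 0. Probe A_51_P288193 had ratios of 0.0066, 0.42, 0.061 and 0.30, a mean of 0.20 ± 0.074 (95% interval 0.028 to 0.37, adjusted p = 0.130), with arrays 2 and 4 high and arrays 1 and 3 near 0. Probe A_52_P436258 gave -0.032, 0.31, -0.034 and 0.11, a mean of 0.087 ± 0.066 (adjusted p = 0.427), and the same arrays were high. Ccng1, the p53-induced cyclin without a known CDK of the cell cycle engine, had 0.069, 0.20, 0.14 and 0.063 with probe A_51_P161612 (mean 0.12 ± 0.049, adjusted p = 0.158) and -0.012, 0.28, 0.20 and 0.17 with probe A_52_P612803 (mean 0.16 ± 0.058, adjusted p = 0.121). Its probes stayed within 0.11 of each other on each array. Of the 16 member probes, 5 had 1 sign on all 4 arrays, namely those of Cdkn1a, Btg1 (A_51_P288193), Btg2 (A_52_P31543 and A_52_P925197) and Ccng1 (A_51_P161612), against 36.4% of all tested probes.

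The split of arrays 1 and 3 from arrays 2 and 4 was not shared by every member. Cdkn1a had -0.34, -0.40, -0.36 and -0.49 on arrays 1 to 4, and Cdkn2c split the opposite way (0.072, -0.22, 0.076 and -0.084). Correlations over all member probes include the Gadd45b, Gadd45g and Btg2 probes described above, so they are not separate support for the split. Across the 16 probes, which share the 8 extracts, Pearson's r was 0.86 between arrays 1 and 3 and 0.75 between arrays 2 and 4, and 0.011 to 0.42 between the other pairs. Over all tested probes the same pairs had 0.62 and 0.54, and the other pairs 0.23 to 0.39. Xist was lower and Eif2s3y higher in the knockout extracts of arrays 1 and 3, as given above. The summed signal of the 9 measured islet markers had log2 ratios of -0.14, 0.17, -0.11 and 0.064 on arrays 1 to 4, with sums of 139682 to 155367 in knockout and 131310 to 168212 in wild type. Of these markers 0 rose, 1 (Chga, the granule protein chromogranin A, -0.24, adjusted p = 0.0410) fell, and none was below background. The sum did not stand for each marker, as 3 named after their values were seen show. Ins1 had the signs of the sum (-0.11, 0.11, -0.011 and 0.062). Chga was lower on all 4 arrays (-0.40, -0.11, -0.31 and -0.15), and Pdx1 had 0.016, -0.26, 0.26 and 0.16. The stress gene Ddit4, named after its values were seen, had -0.79, 0.047, -0.76 and -0.0051 (adjusted p = 0.141). Of the acinar markers, the transcription factor Ptf1a, named like the next gene after its values were seen, had -0.61, 0.58, -0.58 and 0.24 (adjusted p = 0.792), low on arrays 1 and 3 as Gadd45g was. The summed ratio of all 10 measured acinar markers was -0.10, 0.23, 0.32 and 0.45, with 3 markers higher, 2 lower and none below background, and sums of 543702 to 731490 in knockout and 536418 to 584387 in wild type. The 4 measured macrophage and leukocyte markers ran the other way when summed, with summed ratios of 0.10, -0.34, 0.054 and -0.10. Among them only the lysozyme gene Lyz2 had the signs of the sum (0.35, -0.69, 0.30 and -0.064, adjusted p = 0.931). Adgre1 had 0.061, -0.37, 0.19 and 0.038. Csf1r was higher on array 1 alone (0.050, -0.19, -0.045 and -0.13), and Ptprc was lower on all 4 arrays (-0.036, -0.18, -0.11 and -0.17). The sums of the 4 markers were 3052 to 3872 in knockout and 3278 to 4775 in wild type, and 0 of the 4 passed. The part of sex-linked RNA and of islet, acinar and myeloid cells in these ratios was not tested.

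The array centring changed the sign of 8 of the 16 member ratios. When arrays were centred on the median of all spots in place of loess, the median of all tested probes was 0.14, and the member ratios moved up by 0.20 to 0.54. Cdkn1a was then -0.20, which is -0.34 relative to that median, and still passed. The Btg2 probes became 0.055, 0.090 and 0.17, the Gadd45b probes 0.014 and 0.11 and Gadd45g 0.12, none past the threshold. Relative to the median of all tested probes, the Btg2 probes were at -0.087, -0.053 and 0.031 and the Gadd45b probes at -0.13 and -0.033. Gadd45g was at -0.026, so 5 of these 6 stayed below that median. The median of 0.14 was less than the 0.20 to 0.54 by which the members moved. Values relative to that median therefore do not take out the whole shift of a member. Cdkn1c (0.43) and Cdkn2c (0.35) turned from negative to positive and passed, at 0.29 and 0.21 relative to that median. All probes of Cdkn1b, Gadd45a, Btg1 and Ccng1, positive under both, passed as well, which made 9 probes of 6 genes higher, when 15675 of all 32951 tested probes were also called higher. The split of member calls was thus 9 higher and 1 lower under median centring, against 0 higher and 1 lower under loess.

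**Figure D4:**
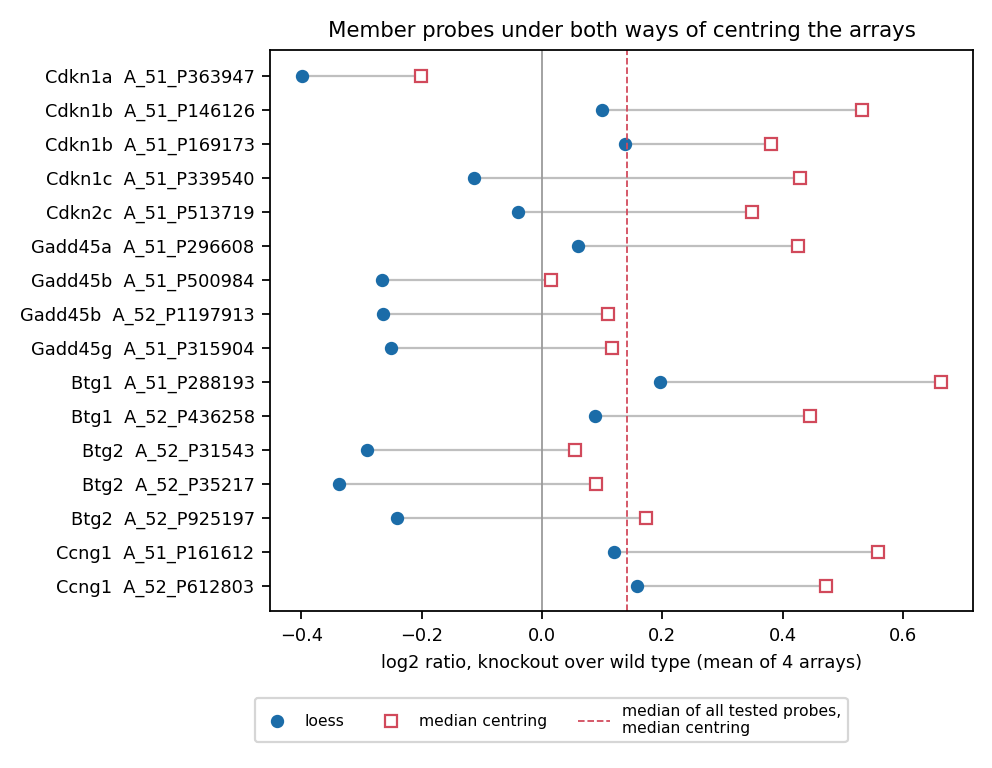
Mean log2 ratio of knockout over wild type of each member probe after loess (filled circles) and after median centring (open squares), with the median of all tested probes under median centring (0.14) dashed. Cdkn1a is the member left of 0 under both.

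The genes that act with the members were read from 7 further lists. Of 11 tested genes for other CDK inhibitors, pocket proteins, repressor E2Fs and checkpoint kinases, 1 rose, 0 fell and 10 did not pass, with 5.88% of 17 probes called, against the 10.6% of all tested probes. The gene that rose was Chek2, the checkpoint kinase activated by DNA breaks (0.25, adjusted p = 0.0465, against 0.078 with its other probe), and its call was lost without array 1, 2 or 3 (0.21, 0.21 and 0.26). Wee1 (0.15), Rbl2 (0.13) and E2f6 (0.086) did not pass.

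Of 27 tested genes of p53 and its other targets, 5 rose, 2 fell and 20 did not pass, with 23.3% of their 43 probes called, against 10.6% of all, and a median of -0.0045. With any 1 array left out, 1 to 3 probes rose and 2 to 4 fell, against 5 and 5 with all 4 arrays. Both genes that fell did so with all their probes: Sesn1, a stress-induced inhibitor of mTORC1 (-0.30, -0.29 and -0.25), and Trp53inp1, a p53 cofactor induced in the stressed pancreas (-0.31 and -0.26). Under median centring the sign of both turned (0.11 for Sesn1 A_51_P233954 and 0.17 for Trp53inp1 A_52_P503387), and that Trp53inp1 probe lost its call without array 4 (-0.22). Plk2, a kinase of the centriole cycle, rose by 0.51 (adjusted p = 0.00998), and Ddb2, which recognises ultraviolet damage in DNA, rose by 0.22 (adjusted p = 0.0266) but not without array 1, 3 or 4 (0.19, 0.21 and 0.23). Trp53 itself had 0.17 and -0.062 with its probes, and its inhibitor Mdm2 had -0.028 and -0.083, all short of the threshold.

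Of 12 tested BTG and TOB relatives and deadenylase partners, 2 rose, 0 fell and 10 did not pass, with 9.09% of 22 probes called, against 10.6% of all. The poly(A) binding protein Pabpc1 rose by 0.42 (n = 3 arrays, adjusted p = 0.00665), and the arginine methyltransferase Prmt1, a binding partner of BTG proteins, rose by 0.18 (adjusted p = 0.0467), a call lost when any 1 array was left out (0.16 to 0.20). The deadenylase Cnot6 (0.16) and the scaffold Cnot1 (-0.16, 0.16 and 0.033 with its probes) did not pass.

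Of 16 tested GADD45 partners and stress genes, 1 rose, 1 fell and 14 did not pass, with 8.33% of 24 probes called, against 10.6% of all. Map2k6, a kinase that activates p38, rose by 0.35 with 1 of 2 probes (adjusted p = 0.00451, against 0.15 with the other), and the stress transcription factor Atf3 fell by 0.37 on the log2 scale (adjusted p = 0.0302), a call lost without array 1, 2 or 4 (-0.36, -0.38 and -0.27). Egr1 (-0.17) and Pcna, the clamp that p21 and GADD45 proteins bind (0.16), did not pass.

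The remaining lists hold genes that drive the cycle. Of 16 tested cyclins, CDKs and CDC25 genes, 6 rose, 1 fell and 9 did not pass, with 25.8% of 31 probes called, against 10.6% of all. With any 1 array left out, 3 to 5 probes rose, against 7 with all 4 arrays, and the fall, that of 1 of 3 probes of the D-type cyclin gene Ccnd2 (-0.19, adjusted p = 0.0451, named after its values were seen), was lost each time. Ccna2, the cyclin of DNA synthesis, rose by 0.50 (adjusted p = 0.00165) and Cdk4, the kinase that p18 inhibits, by 0.32 (adjusted p = 0.00521). Ccnb1 rose with 2 of 3 probes (0.40 and 0.20, against 0.071), and Cdk1 with 1 of 2 (0.25, against -0.061), a call lost without array 1 or 4 (0.22 and 0.26).

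Of 10 tested genes of p27 control by FoxO factors and the SCF-Skp2 ubiquitin ligase, 3 rose, 1 fell and 6 did not pass, with 26.3% of 19 probes called, against 10.6% of all. The gene that fell was Cul1, named after its values were seen. It fell with 1 of 3 probes (-0.20, adjusted p = 0.0389, against -0.030 and -0.061 with the others). With any 1 array left out, 2 to 3 probes rose, against 4 with all 4 arrays, and 0 fell. Cks2, a small CDK-binding protein related to the ligase cofactor Cks1b, rose with both probes (0.35 and 0.42). Foxo1 rose with 1 of 2 probes (0.22, against 0.20 with the other), and Cops5, which promotes p27 breakdown, rose by 0.22, a call lost when any 1 array was left out (0.19 to 0.26). Rbx1, the ring subunit of the ligase, had 0.17, 0.18 and 0.14 and did not pass, while Skp2 was not analysed here.

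Of 22 tested proliferation genes, 12 rose, 1 fell and 9 did not pass, with 59.3% of 27 probes called, against 10.6% of all, and a median of 0.24. With any 1 array left out, 11 to 13 probes rose, against 15 with all 4 arrays. Mki67, the antigen of cycling cells, rose with both probes (0.60 and 0.57, adjusted p = 0.00119 and 0.00141), Tyms, which makes thymidylate, with both (0.46 and 0.45), and the centromere histone Cenpa by 0.37. The gene that fell was Mcm5 of the MCM helicase, which decreased by 0.76 on the log2 scale (adjusted p = 0.00287). These lists are set beside the members by their counts, and no test of the difference between lists was made.

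**Figure D5:**
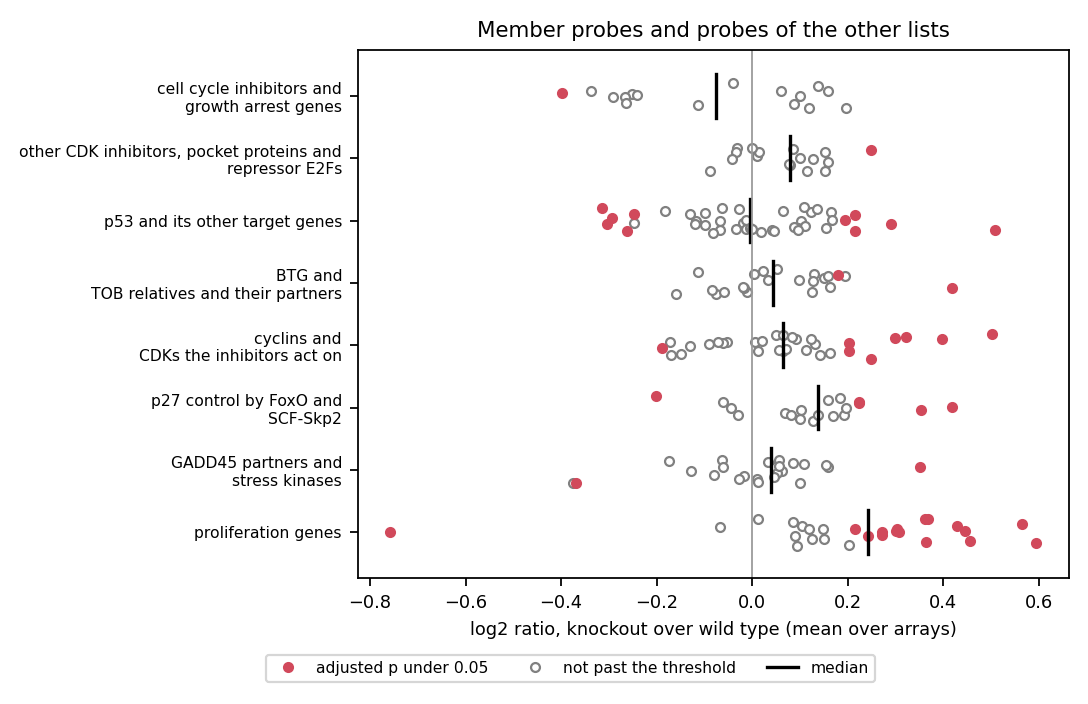
Mean log2 ratio of knockout over wild type (x axis) of every tested probe of the members and of the 7 other lists (rows), filled where the adjusted p was under 0.05, with the median of each list as a bar. The member median is -0.077 and that of the proliferation genes 0.24, and Cdkn1a is the filled point of the members.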

How the data were processed

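Agilent Feature Extraction, version 10.5.1.1 per the submitters' processing notes, was the authors' scanning software. Per the file headers, its output gives for each spot median red and green signals with local background, and processed signals, all as intensity on a linear scale, and a log10 ratio of red over green. These deposited intensities were background-corrected here with normexp (offset 50) and normalised by loess within each array in limma 3.58.1 (R 4.3.3). Control spots and spots marked non-uniform had weight 0, non-uniform spots were then dropped, and spots of a probe were averaged. A probe was tested if well above background on at least 3 of 4 arrays in either channel. Log2 ratios were fitted against 0 with lmFit and eBayes, two-sided, and adjusted by Benjamini-Hochberg over 32951 probes. Each ratio pairs the extracts of an array, so the array is the replicate block. Signals per extract are loess values scaled between arrays (Aquantile). The number of arrays limits the precision. All arrays were on 1 slide, so no batch could be compared.

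Symbols came from accessions matched to RefSeq transcripts of GRCm38.p6 (25097 of 41174 probes, 61.0%), and promoter windows from RefSeq's table of that assembly. The array design was annotated on an older build, so probe positions are not given. The members and all gene lists were chosen with earlier results of these data known. From each list the 4 genes with the smallest unadjusted p by their brightest probe are named, with Trp53, Mdm2, Mki67 and Pcna. The fit was tested on simulated data. Alternatives were no background correction, processed signals with loess, the log10 ratio column, median centring, scaling between arrays, no filter or a stricter filter on dim probes, single channels without the block, array weights, a trended and robust eBayes, 1 probe per gene, the mean of a gene's probes, and leaving out each array.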

Additional observations from a re-analysis of the deposited data

Results flagged for a closer look

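Of 45 named probes tested for a single array far from the other 3, 2 stood past Dixon's critical value, and chance flags about 1 in 20 such groups. The Btg2 probe A_52_P925197 had a log2 ratio of knockout over wild type of -0.52 on array 1, against -0.19 to -0.12 on the other arrays. The Cdk4 probe A_51_P437027 had 0.28 on array 4, against 0.33 to 0.34 on the others, so its low array lay close to the rest.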

How the results depend on the processing

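Cdkn1a kept its sign in all 16 alternatives run and its call in 15 of them. Without the replicate block, with channels as single samples, Cdkn1a stayed at -0.40 with an adjusted p of 0.253, which left 0 member probes and 0 member genes lower, 0 and 0 probes higher and lower in the other lists, and 83 higher and 42 lower over all probes. This fit changed no other member call.

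Median centring in place of loess gave Btg1 0.66 and 0.45, Btg2 0.055, 0.090 and 0.17, Ccng1 0.56 and 0.47, Cdkn1b 0.53 and 0.38, Cdkn1c 0.43, Cdkn2c 0.35, Gadd45a 0.42, Gadd45b 0.014 and 0.11, and Gadd45g 0.12. It called 9 member probes and 6 member genes higher, 129 probes higher and 14 lower in the other lists, and 15675 higher and 8107 lower over all probes. It also turned Sesn1 (0.11), Trp53inp1 (0.17), Cnot1 (0.13), Trp53 A_52_P781398 (0.49) and Mdm2 (0.23). The mean of a gene's probes turned Cnot1 (0.012) and Trp53 (0.053) too. The cause was not tested.

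Leaving out 1 array gave -0.49 to -0.22 for Btg2 A_52_P35217, -0.079 to 0.021 for Cdkn2c and -0.12 to 0.0029 for Trp53 A_52_P781398. Under the same omissions 1 to 2 member probes and 1 to 2 member genes were lower, 20 to 25 probes of the other lists were higher and 3 to 5 lower, and over all probes 875 to 1324 were higher and 530 to 1050 lower, with fewer arrays in each fit. Processed signals with loess called 1221 higher and 768 lower over all probes and the log ratio column 1317 and 744, with 4 and 4 lower in the other lists, against 2157 higher and 1350 lower overall and 35 and 9 in the other lists in the reported fit. With 1 probe per gene 5 probes of the other lists and 797 of all were lower, and with the mean of a gene's probes 757 were lower, with fewer features tested. Over all alternatives, member probes kept sign and call in 226 cases, changed sign in 9, gained a call without changing sign in 8 and lost one in 1. The 4 arrays, the dye layout without a swap and the unstated sex of the embryos, with sex-linked RNA that differed within arrays 1, 3 and 4, limit every value.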

Other observations

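Liver and blood cell markers differed between the extracts of an array. The summed signal of the 6 measured hepatocyte markers, among them Alb and Afp, had log2 ratios of knockout over wild type of 1.93, 0.82, -0.58 and 0.42 on arrays 1 to 4, and that of the 5 measured erythroid markers had 0.48, 0.43, -0.43 and 1.43. The hepatocyte sums were 5525 to 15396 in knockout and 4038 to 8252 in wild type, and 0 of the 6 markers passed the test. Ttr had no value on array 1, so the sums of that array and its ratio of 1.93 lack this marker. The ranges include those sums. Of the 10 measured acinar markers, 3 were higher (Cel, Cpa1 and Rbpjl, named after their values were seen) and 2 lower (Cela1 and Pnlip).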
